A study of Mus musculus with 6 samples.

Results

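The tumour suppressor p53, encoded by Trp53 in mice, is a transcription factor that binds paired copies of a short DNA element and switches on genes that stop the cell cycle, start programmed cell death, repair DNA or feed back on p53 itself. The 10 p53 target genes described here were named as a set of well-known targets: Cdkn1a, Btg2, Ccng1, Mdm2, Zmat3, Bax, Bbc3, Fas, Phlda3 and Trp53inp1. All 10 were among the 55222 entries of the expression table and among the 13517 genes that were tested. In an undamaged cell, Mdm2 protein marks p53 for breakdown; DNA damage and other stresses block this, p53 accumulates, and its targets are transcribed, among them Mdm2. In the liver, p53 targets are known for their response to toxic injury and to the loss of hepatocytes that follows it, and Cdkn1a is known as a brake on hepatocytes that re-enter the cell cycle.

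Liver RNA of mice was sequenced in 3 groups with 2 libraries each. Mice of the AAV-shPhpt1 group received carbon tetrachloride (CCl4) and an adeno-associated virus with a short hairpin RNA directed at Phpt1, which encodes a histidine phosphatase. Those of the AAV-Ctrl group received CCl4 and the control virus, and livers of the third group were labelled only as normal. The strain was C57BL/6, and CCl4, a solvent that hepatocytes turn into a reactive radical, went into the abdomen in olive oil at 12.5 ml/kg, 2 times each week. Virus was injected into a vein after 1 week of CCl4, and livers were collected 48 h after the last CCl4 injection. For the normal group the labels state neither CCl4 nor a virus, so between either CCl4 group and normal livers the effects of CCl4, oil and virus cannot be told apart. The labels give 5 mice for each group that received a virus, no number for normal livers, and not which animals the libraries came from, so p-values measure the spread between these libraries. Neither the promoter that drives the hairpin nor the liver cells that took up the virus were stated.

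The deposited values were FPKM, which scale the reads of a gene to transcript length and library depth, and implied 21327872 to 23888492 reads per library. All 8 hepatocyte markers examined reached at least 1 FPKM in every library, and albumin stood between 72940 and 129600 FPKM. The first principal component, 64.1% of the variance, placed AAV-shPhpt1 replicate 2 at -2.26, between AAV-shPhpt1 replicate 1 with both AAV-Ctrl libraries (32.8 to 45.6) and both normal libraries (-59.1 and -57.1), so that library stood apart from its own group. Phpt1, the gene targeted by the hairpin, had 4 and 5 reads in AAV-shPhpt1 livers, against 4 and 1 in AAV-Ctrl livers, and 4 and 4 in normal livers. AAV-shPhpt1 over AAV-Ctrl reads gave a ratio of 1.75 (95% exact interval 0.525 to 6.63, counting error only). The interval includes a partial knockdown as well as none, so these few reads did not settle whether Phpt1 was lowered. Of the exonic bases of Phpt1, 38.9% are shared with Mamdc4.

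The promoters of 4 p53 target genes are shown because they hold letters that match the DNA element of p53, or a single copy of it, upstream of a start of transcription. RefSeq windows on GRCm38.p6, from 250 bases before to 50 bases after a start site, were at hand for 8 of the 10 genes, in 11 windows. They were searched on both strands, by name, for the p53 decamer consensus, an element of 10 bases that reads the same on either strand, and for pairs of it with at most 1 mismatch in all and a gap of up to 13 bases. In the following 250 bases upstream of the start, each written 5′ to 3′ along its own gene, capitals mark every decamer and pair found.
Cdkn1a, chr17:29090729-29090978, plus strand: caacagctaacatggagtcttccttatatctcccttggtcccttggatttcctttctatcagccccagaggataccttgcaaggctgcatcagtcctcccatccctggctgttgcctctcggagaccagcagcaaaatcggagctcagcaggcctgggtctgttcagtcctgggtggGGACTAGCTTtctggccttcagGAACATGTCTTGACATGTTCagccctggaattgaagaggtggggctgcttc
Ccng1, chr11:40755287-40755536, minus strand: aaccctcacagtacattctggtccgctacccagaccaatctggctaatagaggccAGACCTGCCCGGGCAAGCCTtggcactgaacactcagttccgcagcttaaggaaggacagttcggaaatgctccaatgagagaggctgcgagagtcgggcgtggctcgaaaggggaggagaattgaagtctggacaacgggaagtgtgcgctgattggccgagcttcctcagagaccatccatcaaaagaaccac
Mdm2, chr10:117710759-117711008, minus strand: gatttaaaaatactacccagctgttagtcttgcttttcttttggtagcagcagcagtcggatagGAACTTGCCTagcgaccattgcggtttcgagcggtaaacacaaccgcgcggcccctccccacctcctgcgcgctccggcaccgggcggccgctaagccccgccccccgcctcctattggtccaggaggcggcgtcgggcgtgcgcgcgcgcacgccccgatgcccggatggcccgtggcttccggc
Bax, chr7:45466899-45467148, minus strand: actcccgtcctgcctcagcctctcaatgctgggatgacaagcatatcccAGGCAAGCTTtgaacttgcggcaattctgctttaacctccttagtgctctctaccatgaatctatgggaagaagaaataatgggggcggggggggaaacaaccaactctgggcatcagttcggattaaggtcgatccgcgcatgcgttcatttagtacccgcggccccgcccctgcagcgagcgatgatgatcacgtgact
In Cdkn1a 2 decamers had no mismatch: GGACTAGCTT, which began 73 bases upstream of the start, and the first decamer of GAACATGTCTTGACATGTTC, which began 51 bases upstream. They formed a pair with a gap of 12 bases and 0 mismatches, and the run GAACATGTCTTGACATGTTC, 51 to 32 bases upstream, was itself a pair with a gap of 0 bases and 1 mismatch. In Ccng1 the pair was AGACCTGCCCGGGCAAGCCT, 195 to 176 bases upstream, also with 1 mismatch. Mdm2 had the single decamer GAACTTGCCT, 186 to 177 bases upstream, and Bax had AGGCAAGCTT, 201 to 192 bases upstream.

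At least 1 decamer was present in 4 of the 8 genes with a window, and a pair in 2 of them. These counts are of genes, some with more than 1 window, while the following shares are of windows. Over all 32851 windows of the same length in the RefSeq table, 8.36% held a decamer and 0.63% held a pair. ACATGT is a form that the middle of the decamer can take, and it reads the same on both strands. It occurred 2 times in the Cdkn1a window shown, both in the run that began 51 bases upstream. Of all windows, 0.329% had it at least 2 times. The matches in Ccng1, Mdm2 and Bax did not hold it. The Phlda3 window had it 1 time, where 5.28% of all windows had at least 1. No decamer lay in the windows of Btg2, Phlda3, Bbc3 or Fas. A further Cdkn1a window, chr17:29093519-29093818, belongs to a start downstream and held no decamer either. The positions given for Cdkn1a count from the upstream start only. A match is a run of letters and not a measured site. FPKM values are summed per gene, so the data do not tell apart the start sites of 1 gene.

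**Figure D1:**
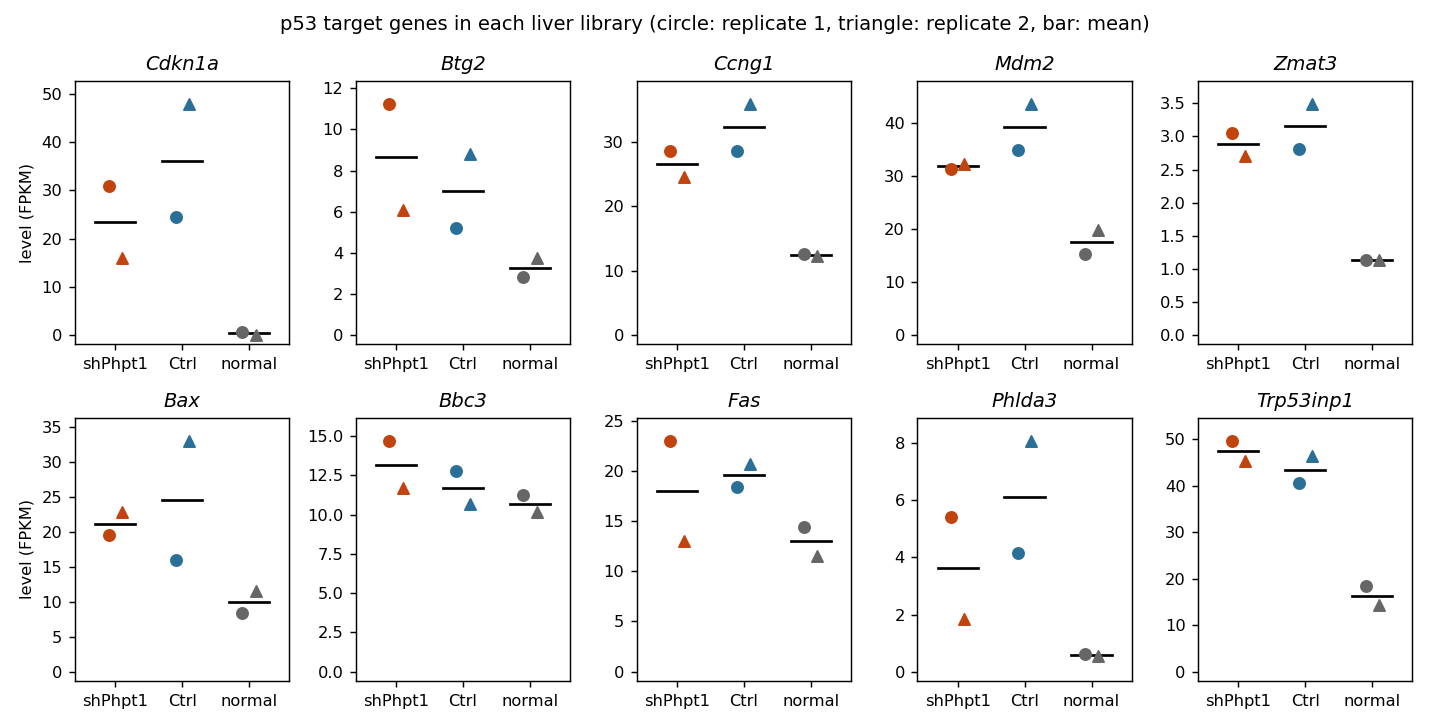
Level in FPKM (linear y axis, own scale per gene) of the 10 p53 target genes in AAV-shPhpt1, AAV-Ctrl and normal livers; circles are replicate 1, triangles replicate 2 and bars the mean of 2 libraries. In Cdkn1a both normal libraries lie under 1 FPKM while the 4 libraries from CCl4-treated mice lie between 15.9 and 47.9 FPKM; in Bbc3 the 3 groups lie close together.

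Cdkn1a had the widest range of the 10 genes. It encodes p21, an inhibitor of cyclin-dependent kinases that holds cells in arrest, and lies on GRCm38 chromosome 17 at 29090976 to 29100727, plus strand. Its level was 30.9 and 15.9 FPKM in AAV-shPhpt1 livers, 24.5 and 47.9 FPKM in AAV-Ctrl livers, and 0.661 and 0.0890 FPKM in normal livers. Both CCl4 groups lay above both normal libraries, and the CCl4 groups overlapped each other. In reads, these levels were 1029 and 543 in AAV-shPhpt1, 763 and 1623 in AAV-Ctrl, and 20 and 3 in normal livers. Cdkn1a was the lowest of the 10 genes in normal livers and number 4 of the 10 by mean level in AAV-shPhpt1 livers and number 3 in AAV-Ctrl livers.

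Tests compared log2(FPKM + 1) with limma in 1 fit over the 6 libraries, with p-values adjusted over all 13517 genes by the method of Benjamini and Hochberg, and genes passed at an adjusted p under 0.05. Genes were tested if their mean reached 1 FPKM in any group, which Cdkn1a did only in the CCl4 groups. In AAV-shPhpt1 over normal livers Cdkn1a rose 62.5-fold by group means, with a log2 difference of 4.11 ± 0.43 (SE) and an adjusted p of 0.0152 in limma, number 10 of the 13517 genes by size of increase; with limma voom on the recovered reads this call was lost (adjusted p = 0.0702). In AAV-Ctrl over normal livers it rose 96.5-fold, with a log2 difference of 4.71 ± 0.43 (SE) and an adjusted p of 0.00849 in limma, number 8 by size. The fold depended on which normal library was kept. Without normal replicate 1 it was 263.4 in AAV-shPhpt1 and 406.5 in AAV-Ctrl, and without normal replicate 2 it was 35.5 in AAV-shPhpt1 and 54.8 in AAV-Ctrl, all over normal livers. From the reads alone the ratio to normal livers was 65.4 (95% exact interval 43.4 to 103.5) for AAV-shPhpt1 and 102.4 (68.1 to 161.9) for AAV-Ctrl, for counting error only. On opposite strands, 7.7% of the exonic bases of Cdkn1a overlap the annotated entry AC167363.2, and the sources used here do not say whether strand was used in counting.

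Btg2 and Ccng1 had smaller differences than Cdkn1a. Btg2 (GRCm38 chr1:134075170-134079120, minus strand) encodes an antiproliferative protein that promotes the shortening of poly(A) tails. Btg2 stood at 11.2 and 6.07 FPKM in AAV-shPhpt1 livers, 5.21 and 8.80 FPKM in AAV-Ctrl livers, and 2.82 and 3.73 FPKM in normal livers. Both CCl4 groups lay above the normal libraries, and their replicates differed by 1.85 times in AAV-shPhpt1 and 1.69 times in AAV-Ctrl. Neither difference passed: the log2 difference was 1.13 ± 0.34 (SE, adjusted p = 0.0978 in limma) for AAV-shPhpt1 and 0.88 ± 0.34 (SE, adjusted p = 0.108 in limma) for AAV-Ctrl, both against normal livers.

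Ccng1 (chr11:40748552-40755311, minus strand) encodes cyclin G1, which brings a phosphatase to Mdm2 and so takes part in the feedback on p53. It stood at 28.5 and 24.6 FPKM in AAV-shPhpt1 livers, 28.6 and 35.9 FPKM in AAV-Ctrl livers, and 12.6 and 12.3 FPKM in normal livers, so that the 3 groups did not overlap; AAV-shPhpt1 replicate 1 (28.54 FPKM) and AAV-Ctrl replicate 1 (28.60 FPKM) nearly touched. The gene rose 2.13-fold in AAV-shPhpt1 (log2 difference 1.03 ± 0.16 SE, adjusted p = 0.035 in limma) and 2.59-fold in AAV-Ctrl (1.30 ± 0.16 SE, adjusted p = 0.0145), both over normal livers. The first of these calls was lost when libraries were centred on their medians (adjusted p = 0.0767) or quantile normalised (0.0705).

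Mdm2 (chr10:117688875-117710758, minus strand), the ubiquitin ligase that closes the feedback loop, was the highest or next highest of the 10 genes in each group. It stood at 31.4 and 32.3 FPKM in AAV-shPhpt1 livers, 34.9 and 43.6 FPKM in AAV-Ctrl livers, and 15.4 and 19.8 FPKM in normal livers. No groups overlapped, with AAV-shPhpt1 livers between the other groups. Mdm2 rose 2.23-fold in AAV-Ctrl over normal livers (log2 difference 1.12 ± 0.18 SE, adjusted p = 0.0189 in limma), a call that was lost under median centring (adjusted p = 0.0552). In AAV-shPhpt1 livers the log2 difference from normal was 0.83 ± 0.18 (SE), with an adjusted p of 0.0553 in limma, just outside the threshold.

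Zmat3 (chr3:32334792-32366014, minus strand) encodes a zinc-finger protein that binds RNA and alters splicing. It was among the lowest of the 10 genes, at 3.05 and 2.71 FPKM in AAV-shPhpt1 livers, 2.82 and 3.49 FPKM in AAV-Ctrl livers, and 1.13 and 1.14 FPKM in normal livers. The normal replicates were nearly equal, and both CCl4 groups lay above them. In AAV-Ctrl livers Zmat3 rose 2.78-fold over normal (log2 difference 0.96 ± 0.21 SE, adjusted p = 0.0316 in limma), but the call was lost under median centring (adjusted p = 0.129) and quantile normalisation (0.246). In AAV-shPhpt1 livers the log2 difference from normal of 0.86 ± 0.21 (SE) had an adjusted p of 0.068 in limma.

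Bax (chr7:45461697-45466898, minus strand) forms the pores in the outer mitochondrial membrane that release cytochrome c. Bax stood at 19.5 and 22.9 FPKM in AAV-shPhpt1 livers, 16.0 and 33.1 FPKM in AAV-Ctrl livers, and 8.42 and 11.6 FPKM in normal livers. All 4 CCl4 libraries lay above the normal ones, and the AAV-Ctrl replicates, 2.07 times apart, enclosed both AAV-shPhpt1 libraries. Neither difference passed: against normal livers the log2 difference was 1.03 ± 0.34 (SE, adjusted p = 0.11 in limma) for AAV-shPhpt1 and 1.15 ± 0.34 (SE, adjusted p = 0.0579 in limma) for AAV-Ctrl. Without AAV-Ctrl replicate 2, the fold over normal livers was 1.60 in place of 2.46. Of the exonic bases of Bax, 12.2% overlap Gm45808 on the same strand.

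Bbc3 (chr7:16308393-16318205, plus strand) encodes PUMA, a protein with only the BH3 domain of the BCL2 family that releases Bax from its inhibitors. It stood at 14.7 and 11.7 FPKM in AAV-shPhpt1 livers, 12.8 and 10.7 FPKM in AAV-Ctrl livers, and 11.2 and 10.2 FPKM in normal livers. AAV-Ctrl and normal libraries overlapped, and AAV-shPhpt1 libraries lay just above normal ones. The log2 difference from normal was 0.27 (95% interval -0.16 to 0.71, adjusted p = 0.313 in limma) for AAV-shPhpt1 and 0.12 (-0.32 to 0.55, adjusted p = 0.636 in limma) for AAV-Ctrl livers. Among the 10 genes Bbc3 had the smallest difference from normal livers in both CCl4 groups, and it turned negative in both under median centring and quantile normalisation.

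Fas (chr19:34290666-34327772, plus strand) encodes the receptor through which Fas ligand kills hepatocytes. Fas stood at 23.0 and 13.04 FPKM in AAV-shPhpt1 livers, 18.4 and 20.7 FPKM in AAV-Ctrl livers, and 14.5 and 11.5 FPKM in normal livers. AAV-Ctrl lay above normal livers, while AAV-shPhpt1 replicate 2 fell within the normal range. The log2 difference from normal was 0.40 (95% interval -0.26 to 1.06, adjusted p = 0.326 in limma) for AAV-shPhpt1 and 0.56 (-0.10 to 1.22, adjusted p = 0.167 in limma) for AAV-Ctrl livers.

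Phlda3 (chr1:135766119-135769136, plus strand) encodes a pleckstrin-homology protein that keeps the survival kinase Akt off the membrane. It stood at 5.41 and 1.86 FPKM in AAV-shPhpt1 livers, 4.15 and 8.09 FPKM in AAV-Ctrl livers, and 0.604 and 0.542 FPKM in normal livers. After Cdkn1a it had the largest fold of the 10 genes in both CCl4 groups, and with Cdkn1a it passed the filter on low values only through those groups. It rose 10.7-fold in AAV-Ctrl over normal livers (log2 difference 2.12 ± 0.45 SE, adjusted p = 0.0296 in limma), a call lost under quantile normalisation (adjusted p = 0.0547). In AAV-shPhpt1 livers, where replicates were 2.91 times apart, the ratio of means to normal was 6.34 and the log2 difference 1.44 ± 0.45 (SE), with an adjusted p of 0.1 in limma. Without AAV-shPhpt1 replicate 1 that ratio was 3.24.

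Trp53inp1 (chr4:11156431-11174379, plus strand) encodes a stress-induced protein that works with p53 in cell death and takes part in autophagy. With Mdm2 it was the highest of the 10 genes, at 49.7 and 45.4 FPKM in AAV-shPhpt1 livers, 40.6 and 46.4 FPKM in AAV-Ctrl livers, and 18.4 and 14.3 FPKM in normal livers. The CCl4 groups overlapped and lay far above normal livers. It rose 2.91-fold in AAV-shPhpt1 (log2 difference 1.49 ± 0.16 SE, adjusted p = 0.0172 in limma) and 2.66-fold in AAV-Ctrl (1.36 ± 0.16 SE, adjusted p = 0.014), both over normal livers.

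**Figure D2:**
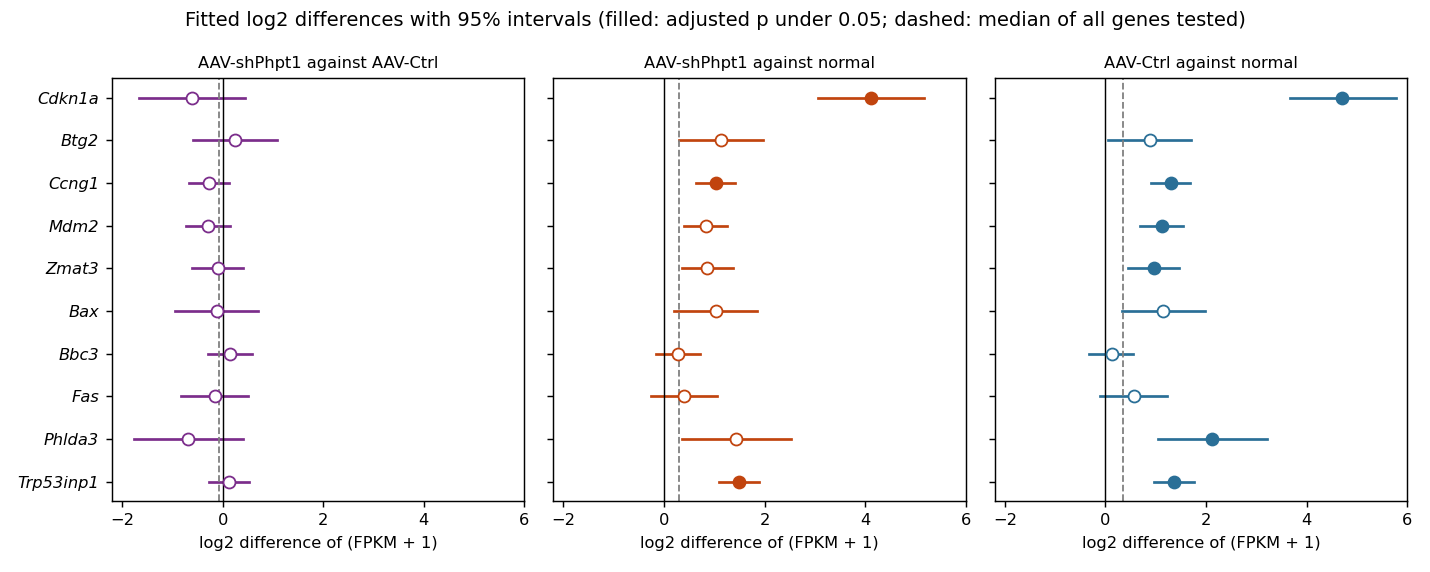
Fitted difference in log2(FPKM + 1) of each p53 target gene (x axis) for the 3 comparisons, with bars for the 95% interval from limma; filled points passed at an adjusted p under 0.05. Of the 10 genes, 3 passed in AAV-shPhpt1 against normal and 6 in AAV-Ctrl against normal, and 0 in AAV-shPhpt1 against AAV-Ctrl, where every interval includes 0.

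In AAV-Ctrl against normal livers, then, 6 of the 10 genes rose and 0 fell: Cdkn1a, Ccng1, Mdm2, Zmat3, Phlda3 and Trp53inp1. Of these, Cdkn1a and Phlda3 passed the filter on low values only through the CCl4 groups. Had they been low in those groups as well, they would not have been tested. Over all genes tested 20.5% passed, 18.2% as rises and 2.28% as falls, and 9 of the 10 p53 targets, against 60.0% of all genes, had both AAV-Ctrl libraries above both normal ones. The median log2 difference of the 10 genes was 1.14, and that of all genes was 0.35 (76.7% of genes had a difference above 0). Measured from that shift, Cdkn1a was 4.36 higher, Phlda3 1.77, Trp53inp1 1.01, Ccng1 0.94, Mdm2 0.76 and Zmat3 0.60, while Bbc3 was at -0.24. The 6 calls needed all 4 libraries compared: leaving out either AAV-Ctrl library or either normal library left 0 of the 10 genes past the threshold.

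In AAV-shPhpt1 against normal livers, 3 of the 10 genes rose, Cdkn1a, Ccng1 and Trp53inp1, and 0 fell. Among these Cdkn1a, as stated, was tested only through the CCl4 groups. Over all genes 4.34% passed, 3.26% as rises and 1.07% as falls. Both AAV-shPhpt1 libraries lay above both normal ones in 9 of the 10 genes, Fas being the exception, against 52.2% of all genes. The median log2 difference was 1.03 over the 10 genes and 0.30 over all genes. With 1 library left out in turn, Cdkn1a differed from normal livers by 3.65 to 4.57 log2 units. Ccng1 differed by 0.93 to 1.13 and Trp53inp1 by 1.32 to 1.66. Without AAV-Ctrl replicate 2, 2 genes passed, and 0 passed without AAV-shPhpt1 replicate 1, AAV-Ctrl replicate 1 or either normal library. The 2 comparisons share the normal libraries, and whether the genes rose more in 1 CCl4 group than in the other was tested in the direct comparison.

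**Figure D3:**
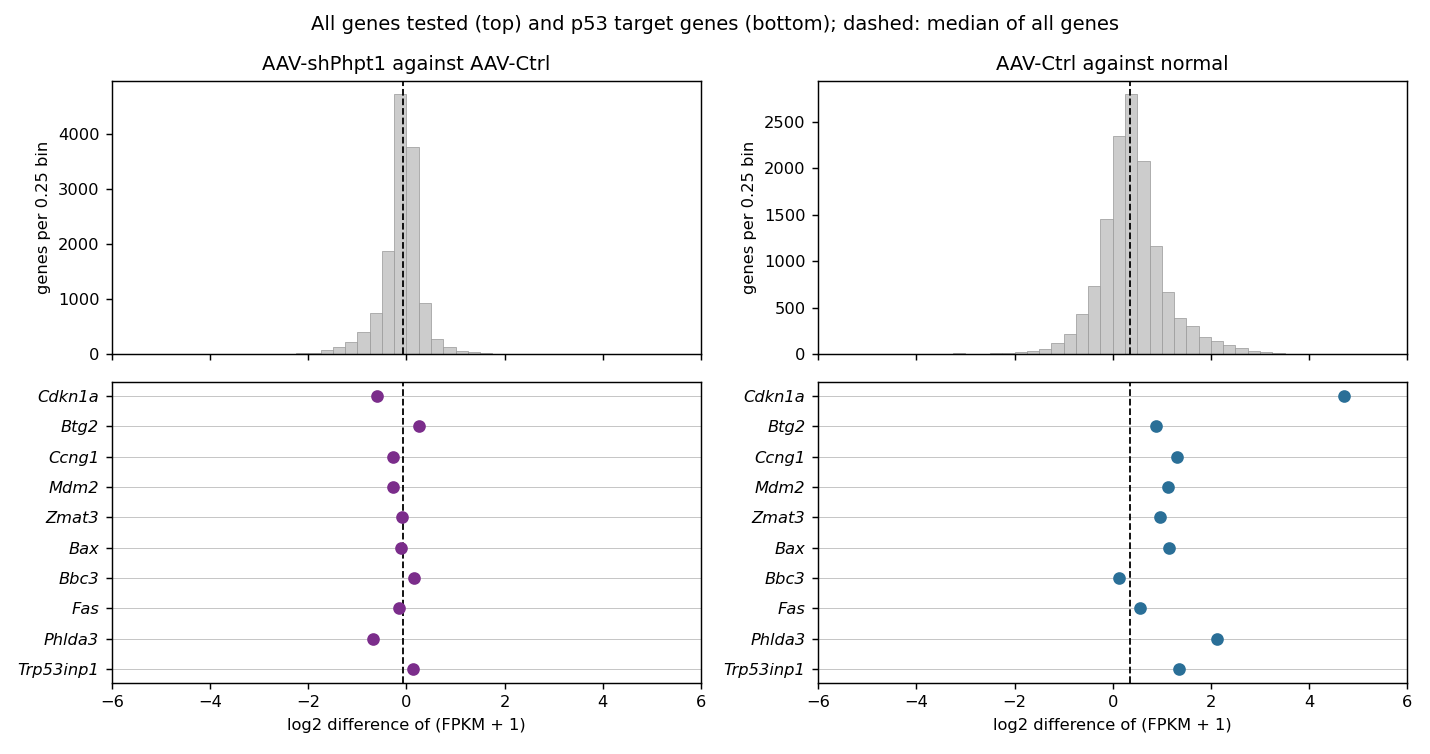
Distribution of the log2 difference of (FPKM + 1) over all 13517 genes tested (top, genes per bin) and the position of the 10 p53 target genes on the same axis (bottom), for AAV-shPhpt1 against AAV-Ctrl (left) and AAV-Ctrl against normal (right); dashed lines are the medians of all genes, -0.07 and 0.35. Against normal livers Cdkn1a lies at 4.71, far right of the bulk of genes, while against AAV-Ctrl all 10 genes lie between -0.68 and 0.25.

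Between AAV-shPhpt1 and AAV-Ctrl livers, 0 of the 10 genes passed, as did 0.0% of all genes in limma, where 1146 of the 13517 genes had an unadjusted p under 0.05 and 0 passed with limma voom on the recovered reads. The difference was below 0 in 7 of the 10 genes and above 0 in Btg2, Bbc3 and Trp53inp1, with a median of -0.14 beside -0.07 for all genes. Only 38.8% of all genes had a difference above 0. In 2 genes, Mdm2 and Ccng1, both AAV-shPhpt1 libraries lay below both AAV-Ctrl libraries, as in 26.2% of all genes, and in 0 genes were both above, as in 11.8% of all genes. Mdm2 had a log2 difference of -0.28 (95% interval -0.72 to 0.15, adjusted p = 0.732 in limma) and Ccng1 of -0.27 (-0.66 to 0.13, adjusted p = 0.722 in limma). The values lowest on this scale were those of Phlda3, -0.68 (-1.76 to 0.41), and Cdkn1a, -0.60 (-1.66 to 0.45), with adjusted p of 0.748 and 0.782 in limma. Without AAV-shPhpt1 replicate 1 the ratio of Phlda3 to AAV-Ctrl was 0.304 in place of 0.594, and without AAV-Ctrl replicate 2 that of Bax was 1.33 in place of 0.865. The intervals are wide: for Cdkn1a and Phlda3 they include both a change of more than 1 log2 unit downward and a small increase, so they do not show that the groups were alike.

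The widest gaps between replicates of 1 group were that of Cdkn1a in normal livers and that of Phlda3 in AAV-shPhpt1 livers. The higher over the lower replicate of Cdkn1a was 1.94 in AAV-shPhpt1, 1.95 in AAV-Ctrl and 7.42 in normal livers, and that of Phlda3 was 2.91, 1.95 and 1.11. In AAV-Ctrl livers the ratio was largest for Bax, at 2.07. Trp53inp1, Mdm2, Ccng1, Zmat3 and Bbc3 stayed within 1.29 times in all 3 groups. AAV-shPhpt1 replicate 2 was lower than replicate 1 in 8 of the 10 genes, Mdm2 and Bax being the exceptions, and AAV-Ctrl replicate 2 was higher than replicate 1 in 9 of 10, all but Bbc3.

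Genes that act on p53 were then examined, from a list of 16 of which 13 were tested. In AAV-shPhpt1 against normal livers 0 of the 13 passed, with a median log2 difference of 0.56, and in AAV-Ctrl against normal livers 3 rose and 0 fell, with a median of 0.57. The 3 of 13 were close to the 18.2% of all genes that rose in AAV-Ctrl against normal livers, where the median over all genes was 0.35. In AAV-shPhpt1 against normal livers 3.26% of all genes rose, and the median over all genes was 0.30. Trp53 itself stood at 20.97 and 17.7 FPKM in AAV-shPhpt1 livers, 21.01 and 22.4 FPKM in AAV-Ctrl livers, and 12.9 and 11.3 FPKM in normal livers. Both CCl4 groups lay above normal livers, and Trp53 rose 1.79-fold in AAV-Ctrl (log2 difference 0.80 ± 0.15 SE, adjusted p = 0.0259 in limma), while in AAV-shPhpt1 the log2 difference of 0.63 had an adjusted p of 0.068. The others that rose in AAV-Ctrl were Hipk2, a kinase that phosphorylates p53 (2.39-fold, adjusted p = 0.0312), and Trp53bp1, a scaffold at broken DNA (1.88-fold, adjusted p = 0.0335). None of these 3 calls held under median centring or quantile normalisation, or without either AAV-Ctrl or either normal library.

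Mdm4, the partner of Mdm2 that blocks p53 activity, stood at 46.2 and 36.4 FPKM in AAV-shPhpt1 livers, 39.5 and 43.3 FPKM in AAV-Ctrl livers, and 20.4 and 37.0 FPKM in normal livers. Its normal replicates spread widely, and it did not pass in AAV-shPhpt1 (log2 difference 0.56, adjusted p = 0.217 in limma) or in AAV-Ctrl (0.57, adjusted p = 0.174), both against normal livers. Usp7, which removes ubiquitin from Mdm2 and p53, had a log2 difference of 0.32 in AAV-Ctrl against normal livers (adjusted p = 0.114 in limma). Cdkn2a, the locus of the Mdm2 inhibitor Arf, had at most 0.190 FPKM in any library and was not tested.

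Of 25 further p53 targets, all tested, 8 rose in AAV-Ctrl against normal livers and 0 fell, with a median log2 difference of 0.69, beside 18.2% higher and 2.28% lower calls and a median of 0.35 over all genes. Of the 25, 8 passed the filter on low values only through the CCl4 groups. Among these were Psrc1, Apaf1, Eda2r, Pmaip1 and Pidd1, all of which rose in AAV-Ctrl against normal livers. Aen, a nuclease of apoptotic cells, stood at 17.3 and 16.7 FPKM in AAV-shPhpt1 livers, 15.8 and 23.4 FPKM in AAV-Ctrl livers, and 6.99 and 6.49 FPKM in normal livers. It rose in both CCl4 groups, with log2 differences from normal of 1.22 in AAV-shPhpt1 (adjusted p = 0.0389 in limma) and 1.39 in AAV-Ctrl (adjusted p = 0.0168). Polk, a DNA polymerase that copies past damaged bases, rose likewise, by 1.23 in AAV-shPhpt1 (adjusted p = 0.0455 in limma) and 1.15 in AAV-Ctrl (adjusted p = 0.0273).

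Eda2r, a receptor of the tumour necrosis factor family, rose 15.8-fold in AAV-Ctrl over normal livers (adjusted p = 0.0267 in limma), at 1.41 and 1.36 FPKM in AAV-shPhpt1, 1.61 and 3.32 FPKM in AAV-Ctrl and 0.184 and 0.128 FPKM in normal livers. Apaf1, the platform on which caspase 9 is activated, rose 5.82-fold in AAV-Ctrl over normal livers (adjusted p = 0.0274 in limma). Psrc1, a microtubule-binding protein, had 2.09 and 0.680 FPKM in AAV-shPhpt1 and 1.57 and 2.74 FPKM in AAV-Ctrl livers, against 0 listed for each normal library; it passed in AAV-Ctrl against normal livers (adjusted p = 0.0335 in limma). Pmaip1, which encodes NOXA, Pidd1 and Plk2 also rose there. Ei24 and Cd82, the most abundant of those that did not pass, had log2 differences of 0.16 and -0.08 in AAV-Ctrl against normal livers.

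In AAV-shPhpt1 against normal livers 2 of the 25 rose, Aen and Polk, beside 3.26% of all genes. The median log2 difference was 0.48, beside 0.30 over all genes. In AAV-shPhpt1 against AAV-Ctrl livers 0 of the 25 passed, with a median of -0.17, beside -0.07 over all genes. The count in AAV-Ctrl against normal livers was 2 under median centring and 3 under quantile normalisation, and it was 0 without either AAV-Ctrl or either normal library. In AAV-shPhpt1 against normal livers it was 0 under median centring, quantile normalisation and voom. No call held there when any library but AAV-shPhpt1 replicate 2 was left out.

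**Figure D4:**
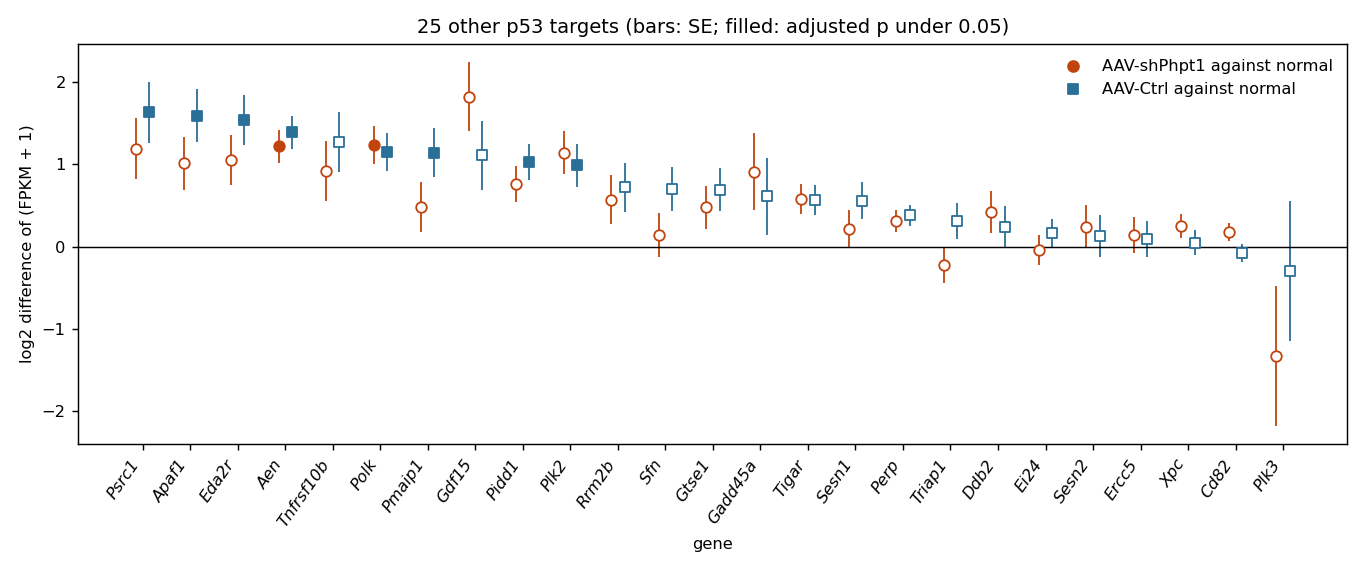
Difference in log2(FPKM + 1) from normal livers (y axis) of the 25 further p53 targets (x axis) in AAV-shPhpt1 (circles) and AAV-Ctrl (squares), with bars for the SE from limma; filled symbols passed at an adjusted p under 0.05. Aen and Polk are filled for AAV-shPhpt1 and 8 genes for AAV-Ctrl. Above 0 lie 22 of the 25 AAV-shPhpt1 points, beside 75.7% of all genes, and 23 of the 25 AAV-Ctrl points, beside 76.7%.

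Other inhibitors of cyclin-dependent kinases had smaller differences than Cdkn1a. Only 3 of the 6 were tested, and 0 passed in any comparison. Cdkn1b, which encodes p27, had a log2 difference from normal of 0.35 in AAV-shPhpt1 (adjusted p = 0.255 in limma) and 0.26 in AAV-Ctrl (adjusted p = 0.344). For Cdkn2c these values were 0.73 (adjusted p = 0.146) and 0.63 (adjusted p = 0.147).

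Among 17 tested genes of the BCL2 family and death receptor pathway, 0 passed in AAV-shPhpt1 against normal livers, with a median log2 difference of 0.16, and 3 rose in AAV-Ctrl against normal livers and 0 fell, with a median of 0.45. The 3 of 17 were close to the 18.2% of all genes that rose there, where the median over all genes was 0.35. In AAV-shPhpt1 against normal livers 3.26% of all genes rose, with a median of 0.30. Bak1, which forms mitochondrial pores as Bax does, stood at 7.46 and 7.50 FPKM in AAV-shPhpt1 livers, 13.3 and 14.4 FPKM in AAV-Ctrl livers, and 7.05 and 7.77 FPKM in normal livers. AAV-shPhpt1 lay within the normal range and below AAV-Ctrl. Bak1 rose in AAV-Ctrl over normal livers (log2 difference 0.82, adjusted p = 0.0242 in limma), and its difference of -0.81 in AAV-shPhpt1 against AAV-Ctrl did not pass (adjusted p = 0.434). Bok, a further relative of Bax (2.21-fold, adjusted p = 0.0488), and Mcl1, which protects cells from death (1.40-fold, adjusted p = 0.0408), were the others that rose in AAV-Ctrl over normal livers in limma. These 3 calls were lost without either AAV-Ctrl or either normal library.

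Genes of S phase and mitosis, which p21 holds down in many cells, rose in part and none fell. Of the 24 tested, 6 rose in AAV-Ctrl against normal livers, beside 18.2% of all genes, and the median log2 difference was 1.14, beside 0.35; 12 of the 24 passed the filter only through the CCl4 groups. Ccnd1, cyclin D1, stood at 118.2 and 52.4 FPKM in AAV-shPhpt1 livers, 67.0 and 62.0 FPKM in AAV-Ctrl livers, and 8.17 and 10.4 FPKM in normal livers. It rose 9.18-fold in AAV-shPhpt1 (log2 difference 2.96, adjusted p = 0.0225 in limma) and 6.94-fold in AAV-Ctrl (2.68, adjusted p = 0.0155), both over normal livers. Mcm6, Mcm2 and Mcm3, subunits of the helicase that opens DNA for replication, rose 9.21-fold, 7.18-fold and 6.48-fold in AAV-Ctrl over normal livers (adjusted p = 0.0245, 0.0374 and 0.0353 in limma). The count of 6 was 2 under median centring or quantile normalisation, 3 with voom, 19 without either or both AAV-shPhpt1 libraries and 0 without either AAV-Ctrl or either normal library.

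In AAV-shPhpt1 against normal livers 1 of the 24 rose, Ccnd1, close to the 3.26% of all genes that rose there. The median log2 difference was 1.17, beside 0.30 over all genes. The replicates there were far apart: Mcm6 stood at 31.8 and 8.48 FPKM in AAV-shPhpt1 livers, 27.8 and 28.5 FPKM in AAV-Ctrl livers, and 3.49 and 2.63 FPKM in normal livers. The proliferation marker Mki67 stood at 7.69 and 0.466 FPKM in AAV-shPhpt1, 3.50 and 3.46 FPKM in AAV-Ctrl and 0.210 and 0.534 FPKM in normal livers. Both AAV-shPhpt1 libraries lay above both normal ones in 17 of the 24 genes, against 52.2% of all genes. Mki67 was among the exceptions, with AAV-shPhpt1 replicate 2 in the normal range. Without that library 18 of the 24 genes passed in AAV-shPhpt1 against normal livers, where 2289 of all genes then passed in place of 586, and 0 passed without either AAV-Ctrl or either normal library. In AAV-shPhpt1 against AAV-Ctrl livers 0 of the 24 passed, as did 0.0% of all genes. The median log2 difference was -0.26, beside -0.07 over all genes.

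The genes whose pattern over the 6 libraries was closest to that of Cdkn1a, by the root-mean-square difference of log2(FPKM + 1) after centring each gene, were Anxa2 (0.182), Lgals3 (0.255), Lcn2 (0.303), Cd63 (0.329) and Atf3 (0.455). Anxa2, a membrane-binding annexin, stood at 130.1 and 85.7 FPKM in AAV-shPhpt1 livers, 94.0 and 175.5 FPKM in AAV-Ctrl livers, and 5.88 and 4.25 FPKM in normal livers. Lcn2, a secreted iron-siderophore carrier of the acute phase, stood at 246.6 and 104.0 FPKM in AAV-shPhpt1 livers, 312.1 and 393.1 FPKM in AAV-Ctrl livers, and 15.0 and 7.85 FPKM in normal livers. These genes were chosen by their likeness, so their levels are a description. Atf3, a stress-induced transcription factor and the fifth of them, stood at 20.7 and 21.7 FPKM in AAV-shPhpt1 livers, 31.0 and 32.4 FPKM in AAV-Ctrl livers, and 0.570 and 0.626 FPKM in normal livers, with AAV-shPhpt1 replicates closer together than those of Cdkn1a. The nearest of the other 9 p53 targets was Phlda3, at 1.25, number 215 of all genes. This measure also counts the size of a change, so targets with smaller rises lie far from Cdkn1a whatever their pattern.

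The libraries came from whole tissue, in which more cells of a type and more RNA per cell cannot be told apart. The summed level of 8 macrophage markers was 375.1 and 123.6 FPKM in AAV-shPhpt1 livers, 665.7 and 648.0 FPKM in AAV-Ctrl livers, and 84.8 and 59.9 FPKM in normal livers. In AAV-Ctrl against normal livers 7 of the 8 rose, beside 18.2% of all genes. Of the 7, Cd14 and Itgam passed the filter on low values only through the CCl4 groups. The sum of 8 stellate cell and myofibroblast markers was 180.2 and 65.8 FPKM in AAV-shPhpt1, 357.8 and 327.5 FPKM in AAV-Ctrl and 28.4 and 32.7 FPKM in normal livers. Of these, 7 rose in the same comparison, among them Pdgfrb, which passed the filter only through the CCl4 groups. The 8 hepatocyte markers summed to 147048 and 102530 FPKM in AAV-shPhpt1, 86603 and 87871 FPKM in AAV-Ctrl and 97826 and 103151 FPKM in normal livers. Of these 8, against normal livers, Cyp2e1 fell in AAV-shPhpt1 (25.4-fold lower, adjusted p = 0.0249 in limma) and in AAV-Ctrl (12.1-fold lower, adjusted p = 0.0176), Apob rose in AAV-Ctrl (1.70-fold, adjusted p = 0.0309), and most of the sum was albumin. The macrophage and stellate cell sums were highest in AAV-Ctrl livers. Within AAV-shPhpt1 the macrophage and stellate cell sums, Cdkn1a and Phlda3 were lower in replicate 2. The hepatocyte sum was lower there too, as were albumin, Apoa1 and Cps1, while Ttr, Serpina1a, Hnf4a, Cyp2e1 and Apob were higher. Within AAV-Ctrl, Cdkn1a and Phlda3 were higher in replicate 2, while the macrophage and stellate cell sums were slightly lower there. The part of these cell types in the levels of the p53 target genes was not tested.

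The 5 Kupffer cell markers summed to 305.5 and 37.8 FPKM in AAV-shPhpt1, 604.2 and 399.7 FPKM in AAV-Ctrl and 102.3 and 82.1 FPKM in normal livers. In AAV-Ctrl against normal livers 1 of the 5 rose, close to the 18.2% of all genes that rose there. The 5 cholangiocyte markers summed to 75.9 and 93.1 FPKM in AAV-shPhpt1, 58.6 and 120.1 FPKM in AAV-Ctrl and 20.1 and 25.2 FPKM in normal livers. Most of this sum was Spp1 in every library. Of the 4 tested, 2 rose in that comparison, Spp1 and Sox9, and Sox9 passed the filter only through the CCl4 groups. Over the 6 libraries the sums ranged from 11.9 to 57.2 FPKM for 6 sinusoidal endothelial markers, from 4.20 to 22.7 FPKM for 7 T and NK cell markers, from 3.26 to 32.3 FPKM for 4 B and plasma cell markers and from 3.08 to 60.7 FPKM for 6 neutrophil markers. The neutrophil markers Ly6g and Mpo were listed at 0 in both normal libraries.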

How the data were processed

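The authors deposited 1 table of 55222 entries with a column for each of the 6 libraries, and its header names no unit. The authors' deposited values were read as FPKM, reads normalised to transcript length and library depth, because FPKM times transcript length gave whole multiples of 1 step per library. Per the labels, libraries were made from 1 ug of total RNA with a TruSeq kit; per the submitters' processing notes the tools and builds were Bowtie 0.12.2, mm8 and mm9, and which of them made the deposited table, and whether strand was used, is not given in these sources. Groups came from sample titles.

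Reads were recovered with mean transcript lengths from GENCODE M21 (GRCm38; 54495 of 54532 Ensembl IDs matched), and 96.5% to 96.8% of values were whole within 0.05 reads; coordinates are those of GRCm38, and promoter sequences are RefSeq's. The 13517 genes whose mean reached 1 FPKM in any group were fitted as log2(FPKM + 1) with limma 3.58.1 (trend) in R 4.3.3, all 6 libraries in 1 fit, with 3 residual and 3.21 prior degrees of freedom; the pseudocount of 1 understates changes of low genes. Tests are two-sided, and adjusted p-values are Benjamini-Hochberg values from limma over all genes. Folds are ratios of group mean FPKM. The script was tested on simulated data.

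The p53 targets, lists, tests and alternatives were chosen with earlier results of these data known. Named were all p53 targets, Phpt1, Trp53 and Mdm4, up to 4 called and 2 uncalled genes of each other list, and the 5 genes nearest to Cdkn1a; other genes were named to complete a small count or, as Mki67, after their values were seen. The alternatives were pseudocount, filter, scaling, groups fitted, voom, a replicate block and leaving out each library.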

Additional observations from a re-analysis of the deposited data

How the results depend on the processing

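Against normal livers, Bbc3 was the only p53 target whose direction changed under any of the 14 settings fitted, but the number past the threshold varied. The count of p53 targets called was 3 in AAV-shPhpt1 and 6 in AAV-Ctrl against normal livers. With no filter on low values it was 0 in AAV-shPhpt1 and 1 in AAV-Ctrl, and leaving out 1 library in turn it ranged from 0 to 5 and from 0 to 6. Over all genes, the count of 586 in AAV-shPhpt1 against normal livers was 4 with no filter, 161 with a mean of at least 0.1 FPKM, 313 under median centring (128 higher and 185 lower, against 441 and 145), 236 under quantile normalisation (114 and 122), 202 with only the 2 groups fitted, 164 with voom, and 9 to 2289 leaving out 1 library. The count of 2772 in AAV-Ctrl against normal livers was 96 with no filter, 1796 with a mean of at least 0.1 FPKM, 1295 under median centring (566 higher and 729 lower, against 2464 and 308), 1092 under quantile normalisation (632 and 460), and 6 to 3739 leaving out 1 library. In AAV-shPhpt1 against AAV-Ctrl livers, 0 genes passed except without AAV-shPhpt1 replicate 1 (377) or replicate 2 (5); leaving out 1 library gave 0 to 377. The causes were not tested. Bbc3 against normal livers was -0.08 and -0.03 in AAV-shPhpt1 and -0.33 and -0.29 in AAV-Ctrl under median centring and quantile normalisation, and -0.0019 to 0.24 in AAV-Ctrl leaving out 1 library. In AAV-shPhpt1 against AAV-Ctrl livers Zmat3 was 0.01 and 0.07 under the same scalings, and leaving out 1 library gave ranges of -0.21 to 0.02 for Zmat3, -0.62 to 0.38 for Bax, -0.14 to 0.65 for Btg2 and -0.55 to 0.22 for Fas. With groups of 2, a lone library is assumed to vary like the others.

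Replicate numbers did not pair the libraries: the correlation of deviations was 0.15 between AAV-shPhpt1 and AAV-Ctrl, 0.04 between AAV-shPhpt1 and normal and 0.07 between AAV-Ctrl and normal. With the replicate number as a block, 384 genes were called in AAV-shPhpt1 against normal livers, 2162 in AAV-Ctrl against normal livers and 0 in AAV-shPhpt1 against AAV-Ctrl livers; of the p53 targets 3, 6 and 0 were called, with Bax in place of Zmat3 (adjusted p = 0.051) among the 6.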
